A study of Homo sapiens with 6 samples.

Results

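The genes described here are MYCL1 (named MYCL in RefSeq), MYCN and MAX, set by the listed NeuroD1 and H3K4me3 regions within 50 kb of each gene in 2 small cell lung cancer lines. The regions were taken by position alone: a region was included when it lay within 50 kb of the hg19 gene span, namely chromosome 1 from 40.361 to 40.368 Mb for MYCL1, chromosome 2 from 16.080 to 16.087 Mb for MYCN and chromosome 14 from 65.473 to 65.569 Mb for MAX. Of 61250 distinct regions in 4 lists, 32 met this rule. The lists came from chromatin immunoprecipitation sequencing of H82 and H524, human small cell lung cancer lines cultured without treatment. Each line had 1 library with an antibody against NeuroD1, 1 with an antibody against H3K4me3 and 1 input library without antibody, and the inputs were not analysed here. With 1 library per line and antibody there were no replicates, so no p-value is given, and a difference between lines cannot be told apart from a difference between libraries.

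MYC, MYCL and MYCN encode basic helix-loop-helix leucine zipper transcription factors that bind E-box DNA as dimers with MAX, and MAX also pairs with repressive partners of the MXD family. In small cell lung cancer a single member of the MYC family is commonly amplified or highly expressed in a tumour. NeuroD1, a factor of neuronal differentiation, has a basic helix-loop-helix domain of the same kind, dimerises with E-proteins, and defines 1 of the transcriptional subtypes of this cancer. H3K4me3, trimethylation of histone H3 at lysine 4, marks promoters of active or poised genes.

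In at least 1 line, both antibodies gave regions within 1 kb of the 5′ edge of MYCL1 and of MYCN, and the promoter sequences of these genes are shown for the E-boxes they hold. Each is the 250 bases before the RefSeq transcription start in build GRCh38.p14, at chr1:39901918-39902167 on the minus strand for MYCL1 and at chr2:15940300-15940549 on the plus strand for MYCN. Capitals mark the E-box pattern CANNTG, which reads as CANNTG on both strands. These coordinates are not those of the regions, which are in hg19, and no conversion was made.
MYCL1: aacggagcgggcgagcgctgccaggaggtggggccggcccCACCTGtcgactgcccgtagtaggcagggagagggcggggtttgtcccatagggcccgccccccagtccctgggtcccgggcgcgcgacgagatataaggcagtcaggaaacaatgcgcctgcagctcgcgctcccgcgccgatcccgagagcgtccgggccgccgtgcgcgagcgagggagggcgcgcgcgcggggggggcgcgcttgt
MYCN: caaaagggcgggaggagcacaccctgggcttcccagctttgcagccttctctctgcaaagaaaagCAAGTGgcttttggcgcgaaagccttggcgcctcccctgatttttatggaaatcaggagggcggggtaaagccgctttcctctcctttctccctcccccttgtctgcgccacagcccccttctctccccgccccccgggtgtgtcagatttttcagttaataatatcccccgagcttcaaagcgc
The MYCL1 promoter held 1 E-box, CACCTG, beginning 210 bases before the start, and the MYCN promoter held 1, CAAGTG, beginning 185 bases before it. MAX has 2 starts in the table, and the 250 bases before each held no such pattern. Before 1 start these bases hold transcribed sequence of another transcript, and the other start lies further downstream. The absence of the pattern therefore may not describe the main promoter of MAX. Of the 35116 promoters of the same length in the table, 61.8% held at least 1 CANNTG, so a match is common. The form CAGATG, or CATCTG on the other strand, was in 12.2% of all promoters, CAGCTG in 13.99% and CACGTG, the form known for MYC and MAX, in 6.34%. None of these 3 narrower forms, each of which is also a CANNTG, was in the 4 promoter entries of the 3 genes.

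NeuroD1 was listed at MYCL1 in both lines and at MYCN and MAX in H524 alone. In H82, all 3 NeuroD1 regions near the 3 genes lay on MYCL1, and there were 0 at MYCN and 0 at MAX. In H524, 9 of 14 lay at MYCN, 4 at MYCL1 and 1 at MAX. H3K4me3, in contrast, was listed within 1 kb of the 5′ edge of all 3 genes in both lines. At MYCL1 in H524 this rested on 1 region that ranked low, above 13.4% of its list. Near MYCL1, MYCN and MAX there were 3, 2 and 2 regions in H82, and 2, 2 and 4 in H524. Along the chromosomes, 9.27%, 16.9% and 27.8% of windows as long as each gene with its 50 kb flanks held at least as many in H82. In H524 the shares were 16.7%, 16.7% and 10.7%. The NeuroD1 list of H524 held 20593 regions and that of H82 held 3854, so the NeuroD1 counts come from lists of unequal length, while the H3K4me3 lists held 18595 and 18208. Sequencing depth is unknown, as the lists carry no read counts.

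**Figure D1:**
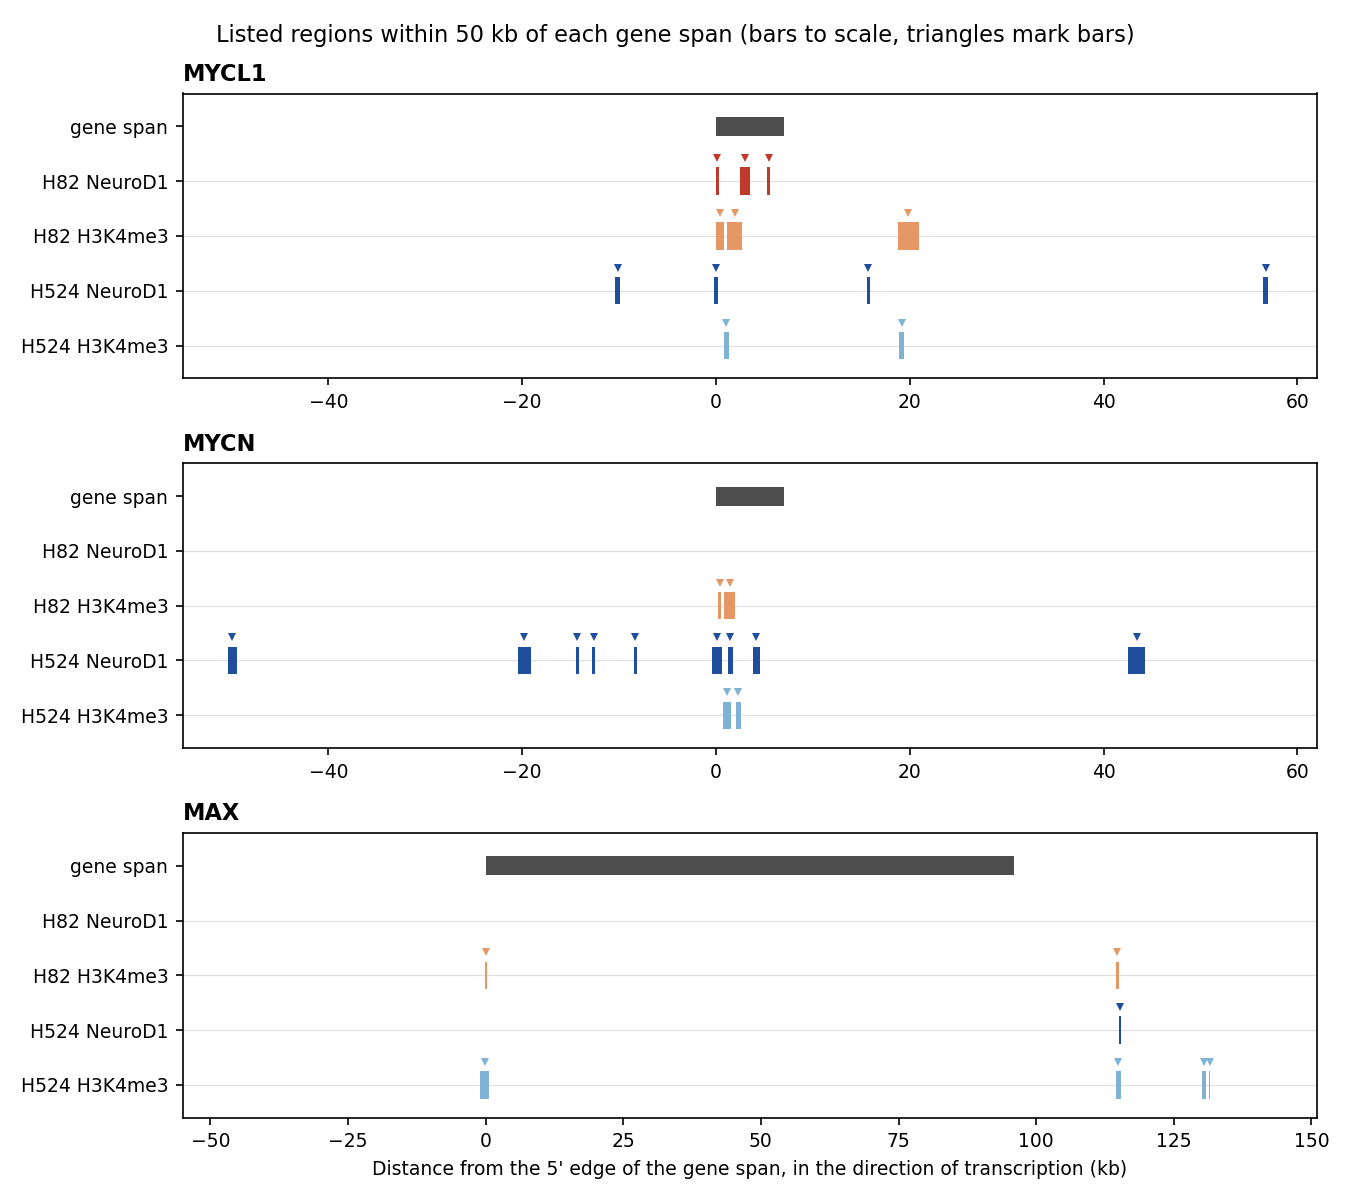
Regions of the 4 lists within 50 kb of the MYCL1, MYCN and MAX spans, by distance in kb from the 5′ edge of the span in the direction of transcription; grey bars are the spans, coloured bars are regions to scale and triangles mark the position of each bar. H82 NeuroD1 is found on MYCL1 alone among these genes, and H524 NeuroD1 has 9 regions at MYCN.

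MYCN, the family member first known from amplification in neuroblastoma, had 9 NeuroD1 regions in H524, the highest count of the 3 genes in the lists as deposited. With the H524 list limited to the length of the H82 list, 3 were left, the same count as at MYCL1 in H82. The 9 regions in the 107 kb window covered 7.12 kb, with 5 upstream of the span, 3 touching it and 1 downstream. On average a window of this length held 0.753 H524 NeuroD1 regions, and 0.333% of 54905 overlapping windows along the chromosomes held 9 or more. Apart from the outermost region on each side, the other 7 lay in a stretch of 25.01 kb that reached from upstream into the gene. On chromosome 2 alone, 0.176% of windows held 9 or more. The nearest H82 NeuroD1 region was beyond the 50 kb limit, at chr2:16217630-16218083, 131 kb past the span.

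The highest scores at MYCN were outside the gene. Scores are the authors' own value per region, read here as the −log10 of an adjusted p-value (q-value), and they are used to rank regions within a list. The highest was at chr2:16071567-16071824, 8.18 kb upstream, which was 258 bp wide with a score of 12.03 (rank 1987, above 90.3% of the H524 NeuroD1 list). It was followed by chr2:16122542-16124245, 35.5 kb downstream of the span, 1704 bp wide with 2 summits and a score of 11.04 (above 88.3%). The third was chr2:16059522-16060886, 19.1 kb upstream, 1365 bp wide with 2 summits and a score of 10.8 (above 87.7%). The fourth, chr2:16029627-16030540, had a score of 8.58 (above 81.1%) and touched the 50 kb limit.

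The remaining upstream regions at MYCN were weaker. The region chr2:16065515-16065864 scored 1.56, near the lowest score of the list (1.304), and chr2:16067226-16067518 scored 3.63 (above 41.6%). Thus 4 of the 9 regions were above the median score of the H524 NeuroD1 list, which was 4.04.

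The 3 regions that touched the MYCN gene had low scores. The first, chr2:16079596-16080572, lay across the 5′ edge of the span, was 977 bp wide and scored 2.55 (above 25.02% of the list). The second, chr2:16081235-16081731, began 1.23 kb inside the gene and scored 1.91 (above 12.4%). The third, chr2:16083771-16084533, began 3.77 kb inside and scored 3.001 (above 31.6%). All of them ranked below the 4 distal regions named above.

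H3K4me3 marked the start of MYCN in both lines over a similar length. In H82 the regions were chr2:16080174-16080561 (score 2.41) and chr2:16080824-16081994 (score 5.51, above 73.3% of its list), 1.56 kb in all. In H524 they were chr2:16080683-16081521 (score 7.49, 2 summits, above 86.0%) and chr2:16082028-16082535 (score 3.45, above 43.2%), 1.35 kb in all. The larger region of each line overlapped that of the other by 698 bp. H82 had 0 NeuroD1 regions within 50 kb of MYCN, which is common in that list, where 89.1% of windows of this length held none.

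The NeuroD1 region across the 5′ edge of MYCN in H524 stopped 110 bp short of the H3K4me3 of H524, and it covered all 388 bp of the first H3K4me3 region of H82. The second NeuroD1 region inside MYCN overlapped the mark of H524 by 287 bp and lay with its full 497 bp on the mark of H82. The third was 1235 bp past the mark of H524. The plot of both gene bodies shows these positions.

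**Figure D2:**
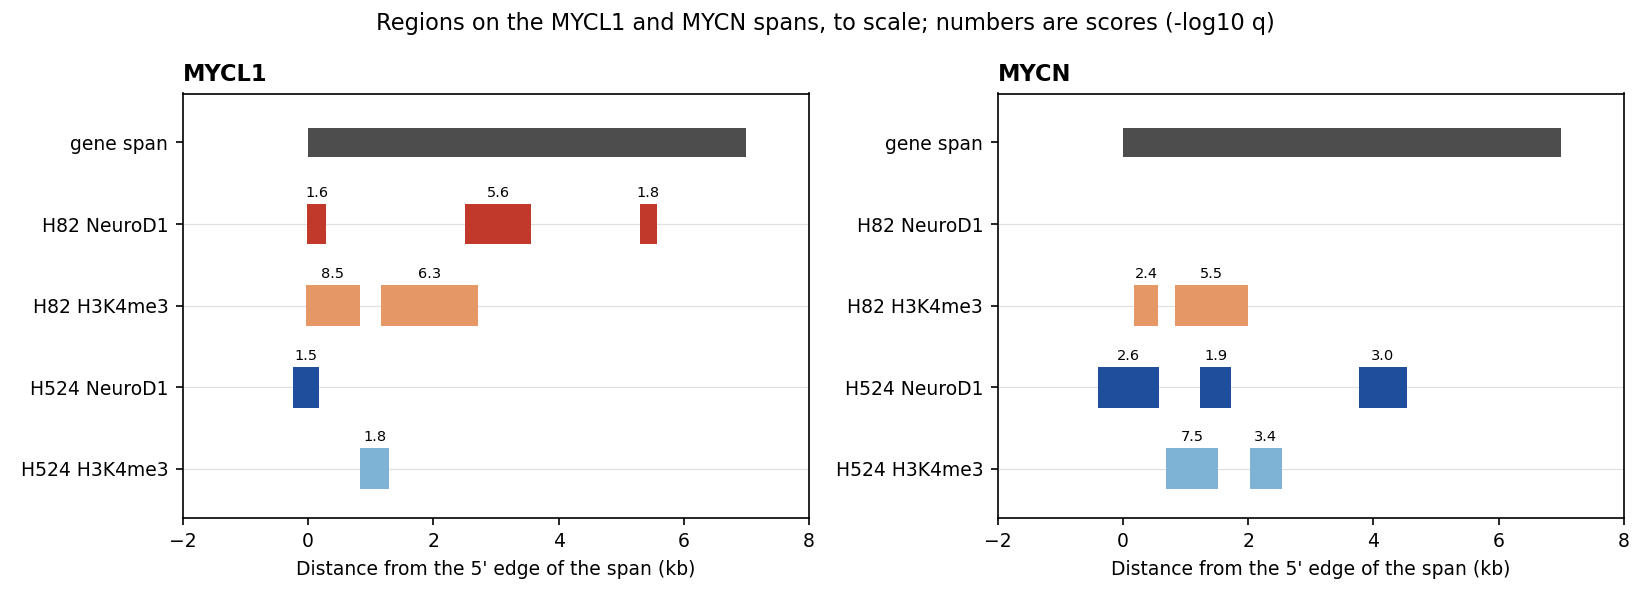
Regions on the MYCL1 and MYCN spans to scale, by distance in kb from the 5′ edge of the span; the number over each bar is its score (−log10 q). On MYCL1, H82 has 3 NeuroD1 regions and 2 H3K4me3 regions, and H524 has 1 of each; on MYCN, NeuroD1 is listed in H524 alone and the mark in both lines.

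MYCL1, first identified as an amplified gene in small cell lung cancer, was the only 1 of the 3 genes with NeuroD1 in H82. The strongest region, chr1:40364445-40365489, lay inside the gene 2.51 kb from the 5′ edge, was 1045 bp wide and scored 5.63 (rank 1017, above 73.4% of the H82 NeuroD1 list). At the 5′ edge, chr1:40367708-40368022 scored 1.63 (above 7.68%), and further inside chr1:40362424-40362706 scored 1.76 (above 11.1%). The latter pair were close to the lowest score of the list, 1.305. In the H82 list, 0.601% of windows of 107 kb held 3 or more NeuroD1 regions and 89.1% held none. On chromosome 1 alone the share with 3 or more was 1.62%, and with regions of a score of 2 or more alone the count at MYCL1 was 1.

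In H524, NeuroD1 at MYCL1 was spread over the surroundings. The highest was chr1:40377903-40378387, 9.90 kb upstream of the gene, with a score of 8.58 (above 81.1%). A region 49.5 kb past the other end, chr1:40311038-40311528, scored 7.62 (above 77.5%), and chr1:40352135-40352457 scored 1.56 (above 6.11%). The region that touched the gene, chr1:40367835-40368236 at the 5′ edge, scored 1.47 (above 3.59%). It overlapped the H82 NeuroD1 region there by 188 bp and was the only NeuroD1 position within 50 kb of the 3 genes listed in both lines, with a low score in each. Windows with 4 or more H524 NeuroD1 regions made up 4.73% of all windows, and with a score of 2 or more the count was 2.

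The promoter mark on MYCL1 was longer and ranked higher in H82. Its 2 regions on the gene were chr1:40367174-40368034, with a score of 8.50 (above 90.4% of the list), and chr1:40365293-40366838, with 6.31 (above 80.0%), 2.41 kb in all with 5 summits. H524 had 1 region of 0.468 kb, chr1:40366704-40367171, with a score of 1.84 (above 13.4%). With scores of 2 or more alone, H524 had no H3K4me3 region on this gene. The H524 region began inside the second H82 region, with an overlap of 135 bp, and ended 2 bp before the first. In H82 the NeuroD1 region at the 5′ edge lay with all of its 315 bp on the mark, and the strongest NeuroD1 region shared 197 bp with it. In H524 the NeuroD1 region at the 5′ edge was 663 bp from the mark of H524, and it overlapped the mark of H82 by 200 bp.

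A further H3K4me3 region was shared near MYCL1. In H82 it spanned chr1:40347103-40349251, 11.7 kb past the 3′ edge of the gene, and it stood highest in its list among the 32 regions, with a score of 16.97, rank 106 and 4 summits. Its counterpart in H524, chr1:40348569-40349133, scored 4.87 (above 64.5%) and lay wholly within it. The next protein-coding gene on that side in RefSeq is TRIT1, a tRNA modification enzyme, and the region was not assigned to a gene here.

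MAX, the shared dimer partner, had the mark at its 5′ end in both lines and 0 NeuroD1 regions on the gene in either. The H82 mark, chr14:65568825-65569195, was 371 bp wide and scored 2.09 (above 16.4%). The H524 mark, chr14:65568325-65569997, was 1673 bp wide with 3 summits, scored 5.51 (above 72.0%) and contained the whole H82 region. The line with the longer mark was thus H524 at MAX and H82 at MYCL1.

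Near MAX, H524 NeuroD1 was listed once, at chr14:65453535-65453941, 19.1 kb past the 3′ edge, with a score of 5.71 (above 65.4%). This region overlapped the H3K4me3 region chr14:65453631-65454511 of H524 (score 7.80, above 87.7%) by 311 bp and that of H82, chr14:65453938-65454503 (score 4.36, above 58.9%), by 4 bp. FNTB, which encodes a subunit of protein farnesyltransferase, is the protein-coding gene in RefSeq whose start coordinate comes next below that of MAX. Overlap of FNTB with MAX was not examined, and the region was not assigned to a gene here. H524 also had H3K4me3 at chr14:65438076-65438780 (score 2.49) and chr14:65437333-65437641 (score 1.42), which H82 did not list. The window of MAX was 196 kb long. In the H82 NeuroD1 list 82.2% of windows of that length held no region, and in the H524 list 52.1% held 1 or more, so these counts were ordinary for each list.

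**Figure D3:**
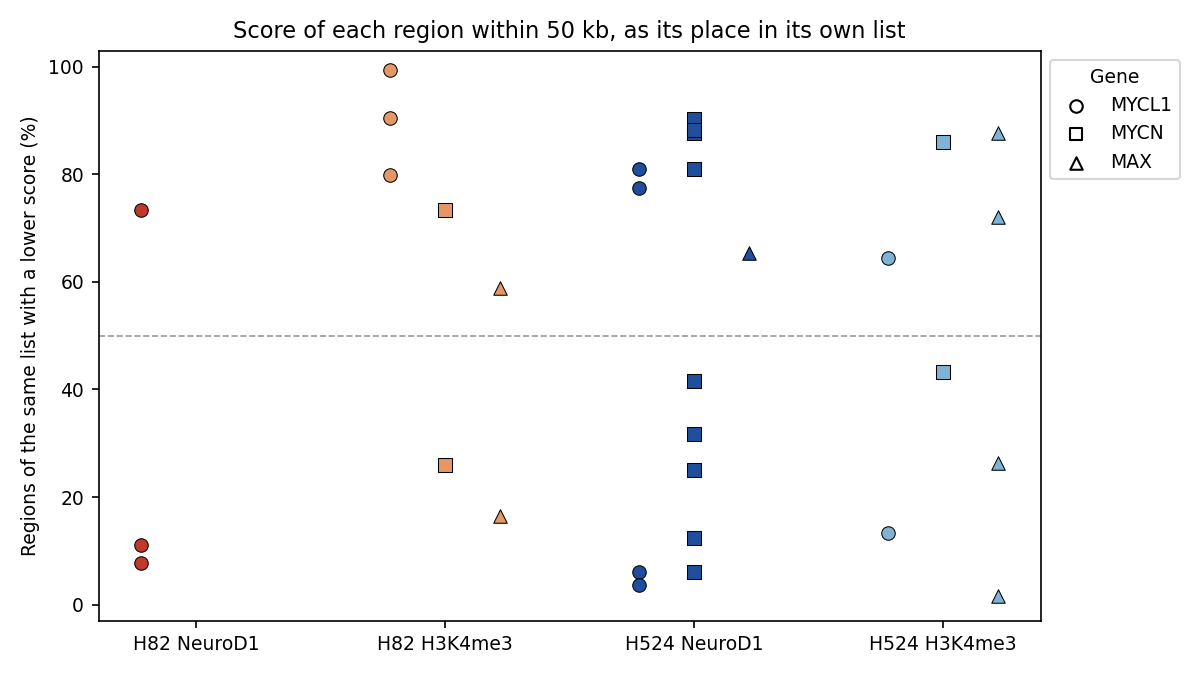
Each region within 50 kb of a gene, by list and gene, as the percent of regions in its own list with a lower score; the dashed line is 50%. H82 H3K4me3 regions at MYCL1 lie between 80.0% and 99.4%, and H524 NeuroD1 regions at MYCN lie between 6.11% and 90.3%.

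The H524 list is longer, and limiting it to its 3854 highest-scoring regions, the length of the H82 list, changed the counts. This left scores of 8.59 or more. At MYCN 3 of 9 NeuroD1 regions were kept, those at 16071567, 16122542 and 16059522, and at MYCL1 and MAX 0 were kept. With lists of equal length, H82 therefore had 3 NeuroD1 regions at MYCL1 and 0 at MYCN, and H524 had 0 at MYCL1 and 3 at MYCN. The H82 list was kept whole, down to a score of 1.305. Its 3 regions at MYCL1 scored 1.63, 1.76 and 5.63, all below the lowest score kept in H524. Windows with 3 or more regions made up 0.601% in H82 and 0.607% in H524. The H524 regions at 16029627 and 40377903 both scored 8.58 and fell just below the H524 limit of 8.59.

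NeuroD1 near these genes was mostly found in a single line, and the mark mostly in both. In H82, 1 of 3 NeuroD1 regions was also listed in H524, against 53.6% of the whole list, and in H524 1 of 14 was also listed in H82, against 9.98%. Over both lists this was 2 of 17 regions, or 11.8% (exact Clopper-Pearson 95% interval 1.46 to 36.4, for counting error only). These 2 regions are the sides of 1 overlap, counted once from each list. The interval treats them as independent and does not allow for this. Within 100 kb the share was 6 of 28, or 21.4%, since shared pairs lay beyond the 50 kb limit at MYCL1 and MAX. For H3K4me3, 5 of 7 H82 regions and 5 of 8 H524 regions overlapped the other line, against 52.4% and 52.9% of the lists, or 10 of 15 in all (66.7%, 38.4 to 88.2). These 10 are likewise 5 overlaps counted from both sides. With so few regions, these shares are not told apart from those of the whole lists.

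Overlap of the antibodies within a line rested on few regions too. NeuroD1 overlapped H3K4me3 of its own line at 2 of 3 regions in H82, against 29.4% of the list, and at 2 of 14 in H524, against 16.0%. Over both lines this was 4 of 17 (23.5%, 6.81 to 49.9). From the side of the mark, the same overlaps took in 2 of 7 H82 regions and 2 of 8 H524 regions, against 6.34% and 18.0%. The intervals were 3.67 to 70.96% and 3.19 to 65.1%. Each interval treats the regions as independent, and the pooled one joins lists with unlike shares. The mark of the other line was overlapped by 0 of 3 H82 NeuroD1 regions, against 15.9%, and by 4 of 14 H524 NeuroD1 regions, against 15.6%. Those 4 were the regions at the 5′ edge of MYCL1, across the 5′ edge of MYCN, inside MYCN and near MAX.

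The surroundings showed whether the counts were local. Within 1 Mb of MYCN, H524 NeuroD1 had 84.1 regions per Mb inside the 50 kb limit and 10.0 per Mb outside it. The limit cut the group of regions: from 64.9 to 91.7 kb past the span there were 5 more, the highest at chr2:16152984-16153565 with a score of 11.1, and on the upstream side the next was 140 kb away. At MYCL1 the values were 37.4 and 12.1 per Mb for H524, and 28.0 and 4.74 per Mb for H82. At MAX the H524 density was lower inside, with 5.10 against 16.3 per Mb. H3K4me3 at MYCN stood in sparse surroundings, with 18.7 regions per Mb inside in both lines and 3.16 and 1.58 per Mb outside in H82 and H524. The inside value was only 2 regions in each line, both on the gene, and 1 when regions within 1 kb were joined.

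**Figure D4:**
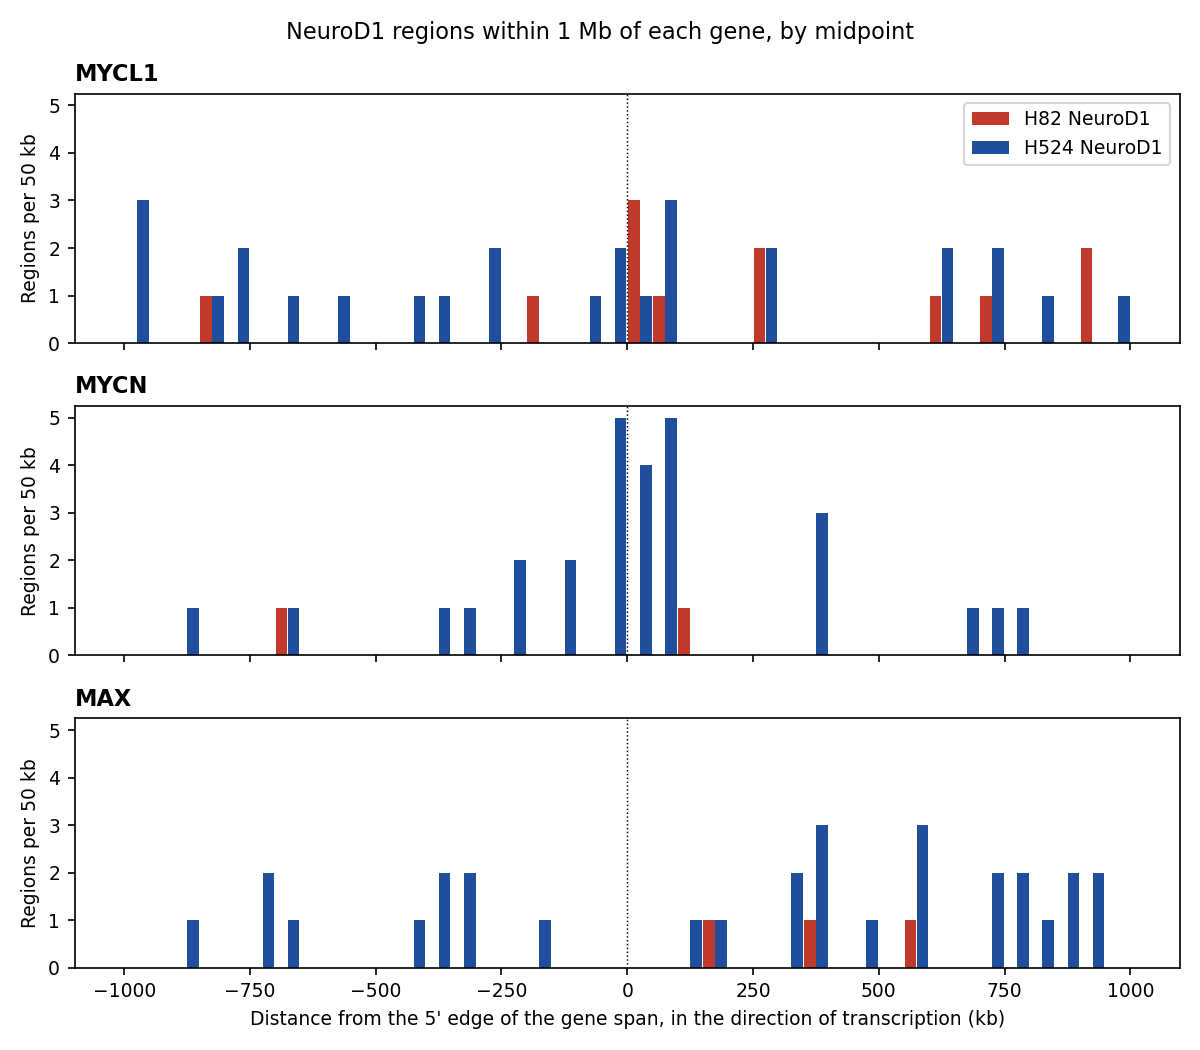
NeuroD1 regions of H82 and H524 per 50 kb, counted by midpoint, against distance in kb from the 5′ edge of the MYCL1, MYCN and MAX spans in the direction of transcription; the dotted line is the 5′ edge. At MYCN the bins from -50 to 0, 0 to 50 and 50 to 100 kb hold 5, 4 and 5 H524 regions. The gene lies in the bin from 0 to 50 kb, and the bin from -100 to -50 kb holds 0. At MYCL1 the bin from 0 to 50 kb holds the 3 H82 regions that touch the gene, and other H82 regions lie further away.

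At the limit of 50 kb itself, the regions just inside were those at 49.5 kb, 40311038 to 40311528 at MYCL1 and 16029627 to 16030540 at MYCN, both of H524 NeuroD1. Just outside at MYCL1, 52.0 and 52.2 kb past the gene, lay a NeuroD1 pair of both lines, chr1:40308715-40309009 in H82 (score 5.64) and chr1:40308392-40308850 in H524 (score 8.32). H3K4me3 of both lines lay 52.9 and 53.0 kb on the other side, with scores of 9.61 in H82 and 4.17 in H524. Copy number at these genes was not analysed here.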

How the data were processed

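NeuroD1 and H3K4me3 were profiled in 1 library each per line, and the 4 deposited peak lists were used. Per the submitters' processing notes, MACS2 2.1.1, Bowtie 1.1.2, ChIPseeker 1.18.0, Picard 1.118, Trimmomatic 0.38 and build hg19 were among the tools and builds, with no role or order given. Whether the inputs served as controls, and all settings, were not given in the sources used here. Scores deposited by the authors were taken as −log10 of a q-value from the lowest value, 1.304, just above the 1.301 of q 0.05, since the lists have no header. Reads per library are unknown, and a deeper library would give a longer list.

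Entries with identical intervals were merged with the highest score. Spans are known to the nearest kb, and strand, gene order and promoters come from RefSeq (GRCh38.p14), where all 3 genes matched. Exon and UTR positions in hg19, MYC network genes and cell type markers were planned but not analysed here, as no hg19 annotation was used. Overlap was at least 1 bp (bedtools 2.31.1; Python 3.11.15, pandas 2.3.3, scipy 1.17.1). Windows of each gene's length ran between the first and last region of a chromosome, stretches without regions included. Counting was tested on simulated data. Because lists held 10 or fewer regions per gene, the rule for named regions took all of them. The genes and lists were chosen with earlier results of these data known. Alternatives changed the distance, score limit, list length, merging and overlap.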

Additional observations from a re-analysis of the deposited data

How the results depend on the processing

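The counts of listed regions over the 3 genes were within 1.5-fold of the reported value in 19 of 24 cases over 6 settings. At a distance of 100 kb H82 NeuroD1 rose from 3 to 5 regions and H524 NeuroD1 from 14 to 23. With scores of 2 or more the H82 NeuroD1 count was 1, and 0% of 11 NeuroD1 regions were found in both lines, since the shared region at MYCL1 scored below 2 in each. With equal list lengths the H524 NeuroD1 count was 3. Counting every summit gave 13 H82 H3K4me3 entries in place of 7 regions. Windows on chromosome 2 alone held 9 or more H524 NeuroD1 regions in 0.176% of cases. The other 11 of 12 shares of overlap stayed within the 95% interval of the reported share. These intervals rest on 15 or 17 regions and are wide, so staying within them says little about stability. The share of H3K4me3 regions in both lines, for example, ranged from 53.3% to 86.7% over the settings. By gene, an addition made after the data had been seen, H524 NeuroD1 at MYCN ranged from 3 to 14. H82 NeuroD1 at MYCN was 0 at a distance of 100 kb, the only setting that could have raised it. H82 NeuroD1 at MAX was 1 at a distance of 100 kb, and otherwise 0, and H524 H3K4me3 at MAX was 2 at a distance of 25 kb and 4 as reported. Read counts are not in the lists, so an effect of depth on regions near the score limit was not tested.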
